A study of Mus musculus with 8 samples.

Results

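Secreted Wnt inhibitors are proteins that hold back Wnt signalling outside the cell. The 8 genes described here were taken by function, by looking up their Ensembl identifiers in the deposited table of 34866 genes, and all 8 were found: Sfrp1, Sfrp2, Sfrp4, Sfrp5 and Frzb of the secreted frizzled-related protein family, the Dickkopf genes Dkk2 and Dkk3, and Wif1. These genes, and the gene lists used below, were chosen with earlier results of these data known. The tissue was epididymal white adipose tissue, the fat pad beside the epididymis, of male mice. The 4 control libraries came from mice with the genotype Aromatase flox/flox, in which loxP sites flank the aromatase gene Cyp19a1. The 4 knockout libraries came from mice with the genotype aP2-Cre;Aromatase flox/flox, which carry the floxed alleles too and in addition Cre recombinase under the aP2 (Fabp4) promoter. That promoter is active in adipocytes and is known to be active in some other cells as well, macrophages among them. The age of the mice is not given in the sources used here, and mice with the transgene alone were not analysed here, so the transgene and the deletion cannot be told apart. The study asked which genes lie downstream of aromatase, the enzyme that turns androgens into oestrogens, in adipose tissue and bear on phosphorus metabolism.

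Wnt ligands bind Frizzled receptors and the co-receptors LRP5 and LRP6, which stabilises beta-catenin and switches on target genes; in fat, Wnt signalling is known to restrain the formation of adipocytes from progenitors. The frizzled-related proteins and Wif1 bind Wnt ligands themselves, whereas the Dickkopf protein DKK2 binds LRP5 and LRP6. SFRP4 is also one of the phosphatonins, circulating proteins that lower phosphate reabsorption in the kidney, and SFRP5 is known as a protein secreted by adipocytes.

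Library totals ran from 1538427 estimated counts in control replicate 4 to 3053565 in knockout replicate 4. Levels are given as CPM, the count scaled to a common normalised library size. The 3 counts taken as the upper limit when a gene has none correspond to 0.975 to 1.90 CPM, for counting error only. Cyp19a1 itself had 1 to 5.02 estimated counts in the control and 0 to 4 in the knockout libraries, so the deletion could not be checked at this depth. All 13 adipocyte markers examined were detected, at a summed 38020 to 60300 CPM, while markers of the epididymis summed to at most 9.98 CPM, with 8 of 13 at 0 in every library. Control replicate 4 and knockout replicate 4 stood apart from the others for several of the 8 genes. The labels do not say whether the libraries came from separate animals, so p-values measure the spread between these libraries.

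Of the 8 genes, 5 had enough counts for testing (Sfrp1, Sfrp2, Sfrp4, Sfrp5 and Dkk3) and 3 were removed by the low-count filter (Frzb, Dkk2 and Wif1). The threshold was an adjusted p of 0.05 from the quasi-likelihood test of edgeR. None of the 5 passed it, while 21 of all 12480 genes tested did, or 0.168%. Without that adjustment 1 of the 5, Sfrp4, had a p under 0.05, as did 6.39% of all genes tested. Sfrp4 was also the only one of the 8 whose control and knockout libraries did not overlap, against 4.2% of all genes tested. The median log2 fold change of knockout over control was 0.132 over the 5 genes and -0.0015 over all genes tested, with 3 of the 5 at a higher and 2 at a lower fitted level in the knockout libraries. The plot of levels by library shows all 8 genes.

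**Figure D1:**
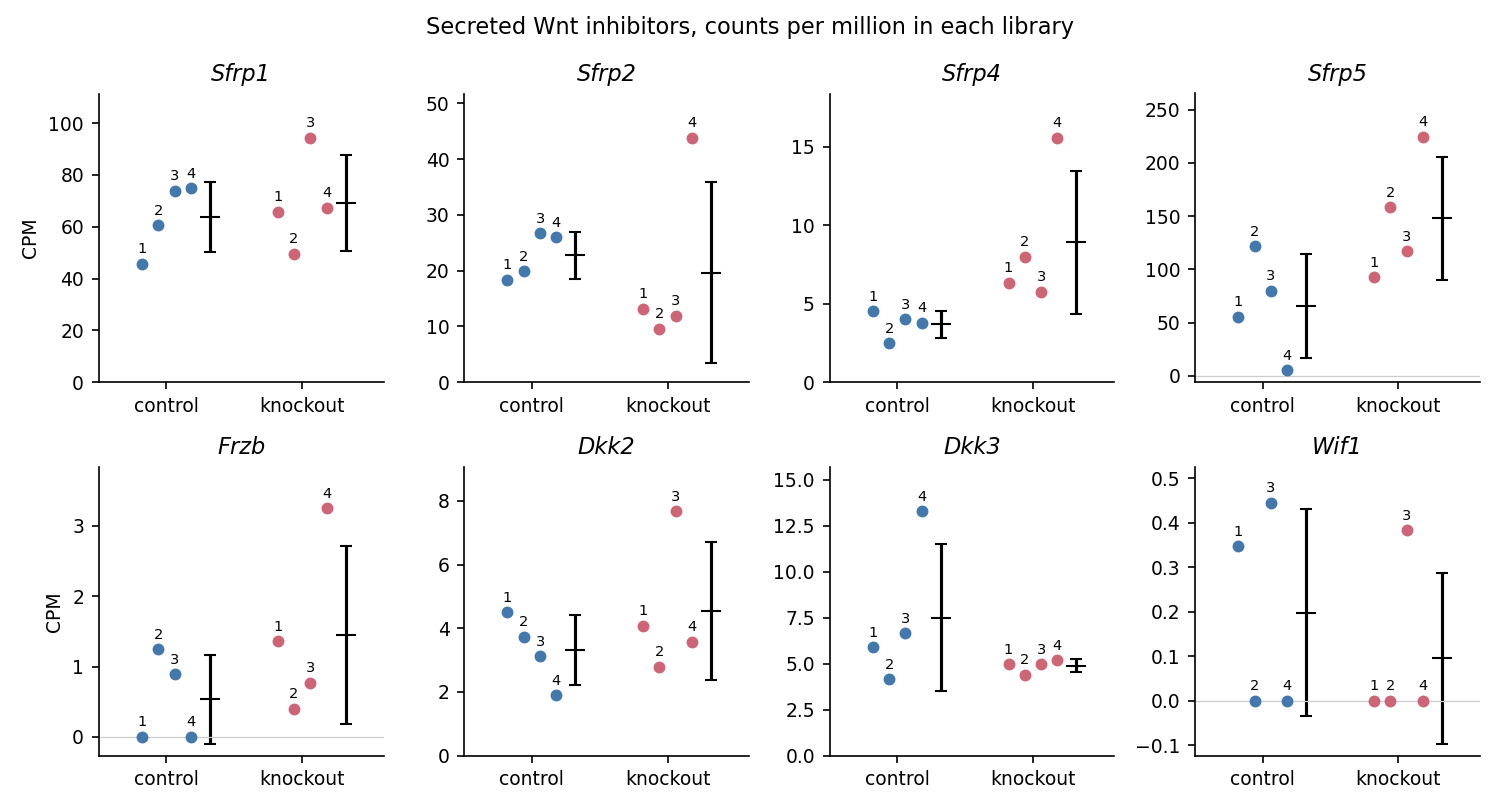
Level of each secreted Wnt inhibitor in CPM (vertical axes, a separate scale for each gene) in the 4 control and 4 knockout libraries; numbers are replicate numbers, and the bar beside each group is the mean with its SD. For Sfrp4 all 4 knockout libraries, at 5.76 CPM or more, lie above the highest control library at 4.51 CPM, while knockout replicate 4 stands far above the other knockout libraries for Sfrp2 and control replicate 4 far below the other controls for Sfrp5.

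The stretches of sequence just upstream of the start sites of Sfrp2, Sfrp5 and Dkk2 are shown because Sfrp2 and Sfrp5 are genes whose values below turn on single libraries, and Dkk2 holds a motif that they lack. They come from RefSeq on GRCm38.p6 and are the 250 bases before the start, read 5′ to 3′ on the gene's own strand, at chr3:83766071-83766320 (plus strand) for Sfrp2, chr19:42202253-42202502 (minus strand) for Sfrp5 and chr3:132085042-132085291 (plus strand) for Dkk2. Capitals mark CTTTG, the core of the motif bound by the TCF/LEF factors of the Wnt pathway, or its reverse complement.
Sfrp2: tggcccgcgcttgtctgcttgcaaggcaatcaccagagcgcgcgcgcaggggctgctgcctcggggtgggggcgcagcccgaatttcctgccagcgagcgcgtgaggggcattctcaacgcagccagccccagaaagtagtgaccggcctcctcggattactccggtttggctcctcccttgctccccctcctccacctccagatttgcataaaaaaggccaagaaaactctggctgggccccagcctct
Sfrp5: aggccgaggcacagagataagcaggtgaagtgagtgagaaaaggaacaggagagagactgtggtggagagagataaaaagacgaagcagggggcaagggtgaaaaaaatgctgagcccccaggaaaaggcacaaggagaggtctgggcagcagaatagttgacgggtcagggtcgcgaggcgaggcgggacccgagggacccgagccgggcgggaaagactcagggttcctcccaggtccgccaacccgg
Dkk2: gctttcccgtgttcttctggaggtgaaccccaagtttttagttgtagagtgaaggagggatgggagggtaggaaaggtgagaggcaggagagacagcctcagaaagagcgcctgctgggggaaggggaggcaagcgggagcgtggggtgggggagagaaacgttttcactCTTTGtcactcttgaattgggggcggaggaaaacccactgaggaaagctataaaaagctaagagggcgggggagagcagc

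Of 5 windows matched by symbol (Frzb, Sfrp2, Dkk2, Wif1 and Sfrp5), CTTTG was found on either strand in 3, those of Frzb, Dkk2 and Wif1, and 48.6% of the 32851 windows in the RefSeq table hold it. AGGTCA, the half-site bound by oestrogen receptors and related nuclear receptors, was found in 0 of the 5 and in 14.02% of all windows. The GC content of the 5 windows was 55.6% (Dkk2) to 64.4% (Frzb), with a median of 52.4% over all windows. No window was matched by symbol for Sfrp1, Sfrp4 or Dkk3, so these motif counts do not cover them.

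Among the inhibitors that bind Wnt ligands, Sfrp4 (chromosome 13, 19623104 to 19632994, plus strand, GRCm38) had the largest fitted difference of the 5 tested genes. Control replicates 1 to 4 had 13.1, 6.03, 9 and 6 estimated counts. Knockout replicates 1 to 4 had 14, 20, 15.1 and 48. On the CPM scale these were 4.51, 2.49, 4.00 and 3.803 for the controls and 6.35, 7.99, 5.76 and 15.6 for the knockout libraries. All 4 knockout libraries lay above all 4 controls, and knockout replicate 4 was 2.33 times the mean of the other 3 knockout libraries. The means were 3.70 ± 0.860 and 8.93 ± 4.55 CPM (SD, n = 4 each; two-sided exact permutation p = 0.0286, the smallest that 4 against 4 libraries can give).

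The fitted difference for Sfrp4 was a log2 fold change of 1.27 (standard error 0.42), or 2.41-fold, with a 95% interval of 0.374 to 2.17 on the log2 scale. Its edgeR p was 0.00878, the 209th smallest of 12480, and the adjusted p was 0.52. Without knockout replicate 4 the log2 fold change was 0.845 (edgeR adjusted p = 0.826), and the p before adjustment no longer lay under 0.05. The 3 remaining knockout libraries, at 5.76 to 7.99 CPM, still lay above every control, but by few counts. Knockout replicates 1 and 3 had 14 and 15.1 estimated counts, against 13.1 in control replicate 1, a larger library. Summed macrophage markers moved with the genotype in the same direction as Sfrp4: all 13 markers were detected, their sum was 1006 to 1153 CPM among the controls and 1485 to 1927 CPM among the knockout libraries (two-sided exact permutation p = 0.0286, adjusted p = 0.2 over 7 marker lists), and knockout replicate 4 was highest in both. Of the 12 macrophage markers tested, 10 had a higher and 2 a lower fitted level in the knockout libraries. The 3 that passed the adjusted threshold, Ctss, Lyz2 and Cd68, were all higher. Cd163 and Mertk were the lower ones, at log2 fold changes of -0.187 and -0.055, and C1qa and C1qc were at 0.152 and 0.112. Knockout replicate 4 was also the highest library for the fibroblast and adipose progenitor marker sum, at 5275 CPM, though that sum overlapped between the genotypes. It was the highest knockout library for 27.6% of all genes tested. The part of macrophages, fibroblasts or progenitors in the Sfrp4 level was not tested. In RNA of a whole tissue, fewer or more cells of a type and less or more RNA per cell cannot be told apart.

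Sfrp5 (chromosome 19, 42197971 to 42202252, minus strand) had a fitted difference close to that of Sfrp4 but varied more among the controls, with a coefficient of variation of 74.3% against 23.2% for Sfrp4. Among the knockout libraries it varied less, 39.0% against 51.0%. It was at 55.5, 121.6, 80.1 and 5.07 CPM in control replicates 1 to 4, the last from 8 estimated counts. In the knockout libraries it was at 92.6, 158.2, 117.1 and 224.6 CPM. Control replicate 4 was thus over 10 times below every other control, and the genotypes overlapped, because control replicate 2 lay above knockout replicates 1 and 3. The means were 65.6 ± 48.7 and 148.1 ± 57.8 CPM (SD, n = 4 each; two-sided exact permutation p = 0.0857).

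The log2 fold change of Sfrp5 was 1.15 (standard error 0.688, edgeR adjusted p = 0.907), with a 95% interval from -0.51 to 2.81, which runs from a lower level in the knockout to a difference larger than that of Sfrp4. Without control replicate 4 it was 0.80 (edgeR adjusted p = 0.755), and without control replicate 2 it was 1.62. Without knockout replicate 4 it was 0.875, and without control replicate 4 and knockout replicate 4 together it was 0.527 (edgeR adjusted p = 0.717). Control replicate 4 also had the lowest endothelial marker sum, 567.3 CPM against 905.7 to 1079 CPM in the other controls, and the highest mesothelial marker sum, 445 CPM against 174.7 to 299.7 CPM. Its adipocyte marker sum, 45470 CPM, was the lowest of the controls, where the others were at 47930 to 60300 CPM. Knockout replicates 3 and 4 had lower adipocyte sums still, 38020 and 44010 CPM, with Sfrp5 at 117.1 and 224.6 CPM. The part of these cells in the low Sfrp5 level was not tested.

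Sfrp2 (chromosome 3, 83766321 to 83774316, plus strand) had knockout libraries on both sides of the controls. It was at 18.4, 19.9, 26.7 and 26.0 CPM in control replicates 1 to 4 and at 13.2, 9.59, 11.9 and 43.9 CPM in knockout replicates 1 to 4. Knockout replicates 1 to 3 lay below every control, and knockout replicate 4 lay above every control. The means, 22.7 ± 4.21 and 19.6 ± 16.2 CPM (SD, n = 4 each), did not differ beyond that spread (two-sided exact permutation p = 0.8286; log2 fold change -0.17, 95% interval -1.23 to 0.888, edgeR adjusted p = 0.982).

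Without knockout replicate 4 the log2 fold change of Sfrp2 was -0.97 (edgeR adjusted p = 0.339; under 0.05 before adjustment), and without knockout replicate 2 it was 0.054. Fibroblast and adipose progenitor markers summed to 3934 to 4660 CPM among the controls and 4130 to 5275 CPM among the knockout libraries, with all 16 detected. Knockout replicate 4 was the highest of the 8, but by much less than for Sfrp2, and the part of these cells in the Sfrp2 level was not tested. An antisense gene on the opposite strand, Gm26771, overlaps Sfrp2 in the annotation and was not in the deposited table; whether counting used strand is not given in the sources used here.

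Sfrp1 (chromosome 8, 23411502 to 23449632, plus strand) ranged over about the same levels in both genotypes. It was at 45.8, 60.6, 73.9 and 74.8 CPM among the controls and at 65.8, 49.5, 94.5 and 67.3 CPM among the knockout libraries. The genotypes overlapped over most of their range (63.8 ± 13.6 against 69.3 ± 18.6 CPM, SD, n = 4 each; two-sided exact permutation p = 0.686). The log2 fold change was 0.132 with a 95% interval of -0.31 to 0.57 (edgeR adjusted p = 0.953), so that a difference of 1.48-fold upward or more lies outside the interval. Its sign turned without control replicate 1 (-0.005) and without knockout replicate 3 (-0.055).

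Frzb (chromosome 2, 80411970 to 80447625, minus strand), the gene of a frizzled-related protein first known from cartilage, was close to the detection limit. Control replicates 1 to 4 had 0, 3, 2 and 0 estimated counts, and knockout replicates 1 to 4 had 3, 1, 2 and 10. The 10 counts of knockout replicate 4, or 3.25 CPM, were the only value above 3 counts. Fitted without the low-count filter, its log2 fold change was 1.35 with a 95% interval of -0.82 to 3.51 (edgeR adjusted p = 0.785).

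Wif1 (chromosome 10, 121033960 to 121100650, plus strand), which binds Wnt ligands through a domain of its own, had 2 estimated counts over all 4 control libraries and 1 over all 4 knockout libraries. Both genotypes were below the limit of 3 counts in each library, and no fold change is given.

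The Dickkopf genes had few counts in both genotypes. Dkk2 (chromosome 3, 132085292 to 132180304, plus strand), whose protein acts at LRP5 and LRP6, was at 4.51, 3.74, 3.12 and 1.90 CPM among the controls and at 4.08, 2.80, 7.68 and 3.58 CPM among the knockout libraries. Knockout replicate 3 was the highest and control replicate 4 the lowest, and the others overlapped (two-sided exact permutation p = 0.429). Fitted without the low-count filter its log2 fold change was 0.41 (95% interval -0.67 to 1.49, edgeR adjusted p = 0.873).

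Dkk3 (chromosome 7, 112116017 to 112159057, minus strand) encodes the most divergent Dickkopf protein, whose action on Wnt signalling is less settled. It was at 5.89, 4.15, 6.68 and 13.3 CPM among the controls and at 4.99, 4.395, 4.99 and 5.20 CPM among the knockout libraries. The knockout libraries were within 1 CPM of each other, inside the range of the controls, and control replicate 4 lay above all others. The log2 fold change was -0.57 (95% interval -1.44 to 0.305, edgeR adjusted p = 0.91) and -0.18 without control replicate 4. This was also the library in which mesothelial markers were highest; their part in the Dkk3 level was not tested.

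**Figure D2:**
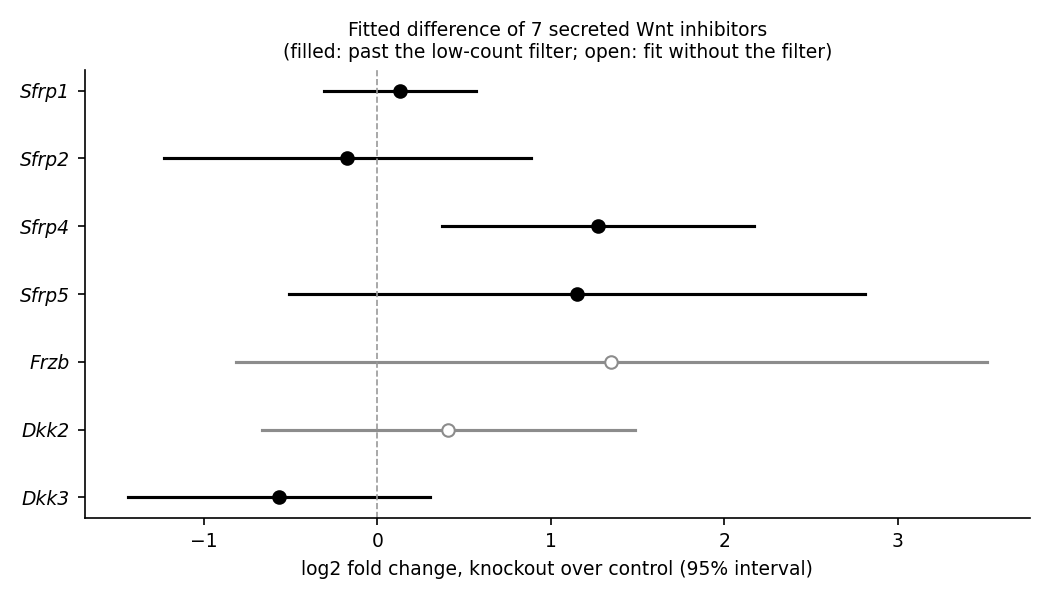
Fitted log2 fold change of knockout over control (horizontal axis) with its 95% interval for 7 of the genes; filled points are the 5 genes past the low-count filter and open points Frzb and Dkk2, fitted only without it, while Wif1 is left out. The interval of Sfrp4, 0.374 to 2.17, does not reach 0 before adjustment over all genes, and those of the other 6 genes do.

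Summed over the 8 genes, the level was 134.9, 213.8, 195.8 and 124.9 CPM among the controls and 188.3, 232.9, 243.0 and 363.4 CPM among the knockout libraries. Control replicate 4 was lowest and knockout replicate 4 highest, as they were for Sfrp5 but not for Sfrp1. Sfrp5 made up 4.06% of the sum in control replicate 4 and 61.8% in knockout replicate 4. Knockout replicate 4 was the highest knockout library for 5 of the 8 genes (Sfrp2, Sfrp4, Sfrp5, Frzb and Dkk3). For Dkk3 it was at 5.20 CPM, against at most 4.99 CPM in the other knockout libraries. Over all genes tested, which leave out Frzb, Dkk2 and Wif1, the share was 27.6%. How each fitted difference moved when a library was left out is shown in the plot of differences by library left out.

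**Figure D3:**
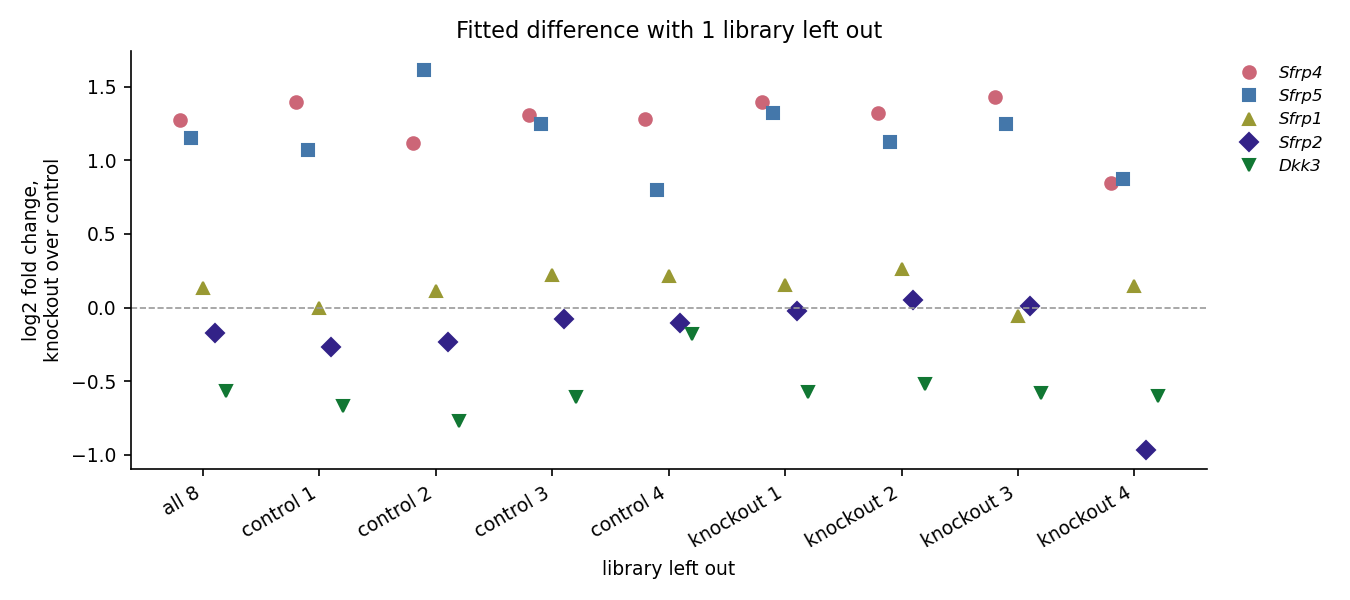
Fitted log2 fold change of knockout over control (vertical axis) for the 5 tested genes with all 8 libraries and with each library left out in turn (horizontal axis). Sfrp4 stays between 0.845 and 1.433 and Sfrp5 between 0.80 and 1.616, while Sfrp2 goes from -0.17 to -0.97 without knockout replicate 4.

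**Figure D4:**
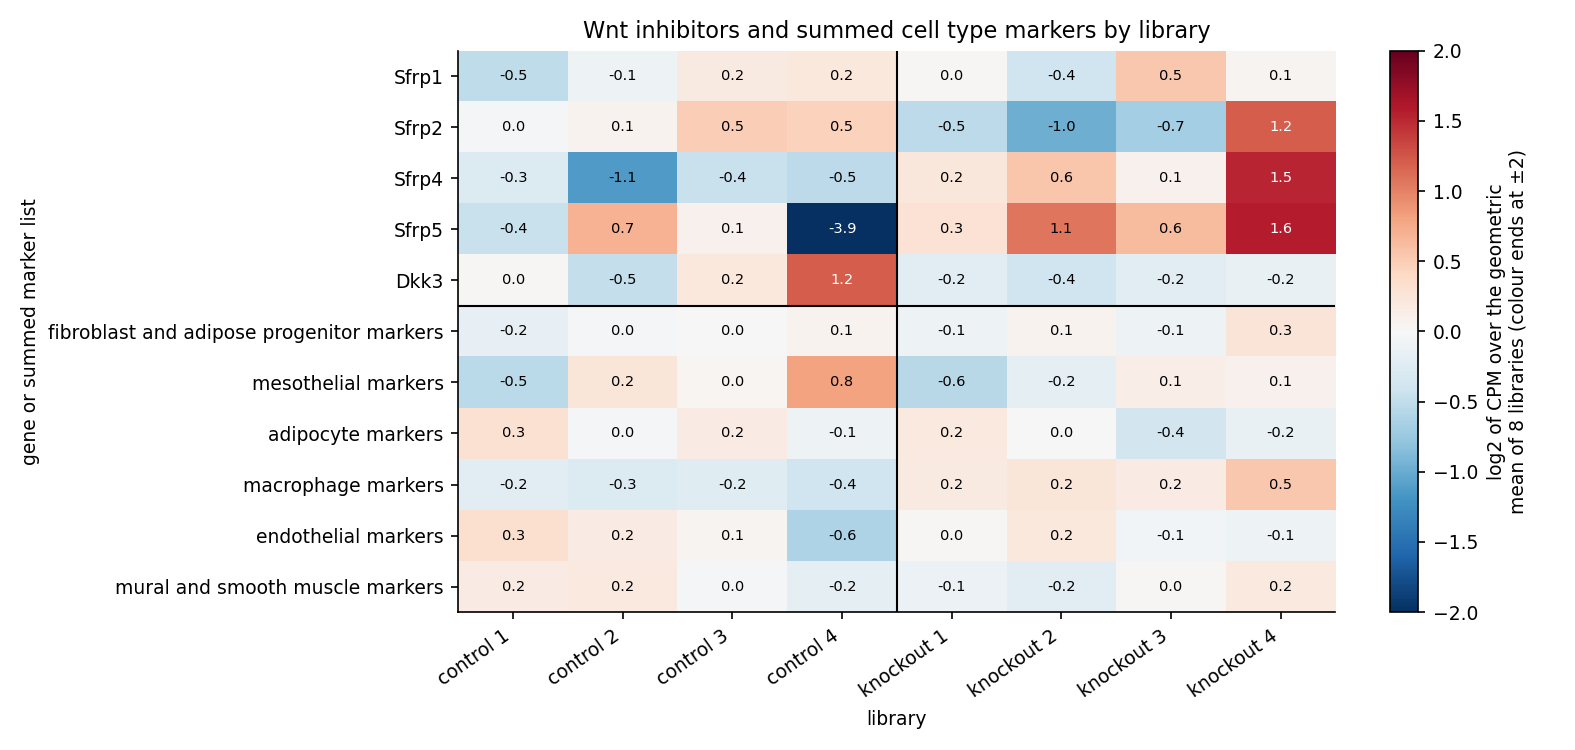
Level of the 5 tested genes and summed level of 6 cell type marker lists (rows) in each library (columns), as log2 of the CPM over the geometric mean of the 8 libraries. Sfrp5 in control replicate 4 is at -3.9 and Sfrp4 and Sfrp5 in knockout replicate 4 are at 1.5 and 1.6, while no marker list departs by more than 0.807 in any library.

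The genes most like each tested inhibitor were those with the highest Pearson correlation of log2 CPM over the 8 libraries after the genotype means were removed; these are descriptions of 8 libraries, chosen as the highest of many genes. For Sfrp5 they were Mfge8, which encodes a secreted milk fat globule protein (r = 0.996), Ptp4a3 (0.98) and Cyp4v3 (0.98), and without control replicate 4 the 3 values were 0.973, 0.865 and 0.893. For Sfrp2 they were Galnt15 (0.987), Serpinh1, a collagen chaperone gene (0.968), and Crim1 (0.96). Without knockout replicate 4 that of Galnt15 was 0.886, while those of Serpinh1 and Crim1 were 0.63 and 0.512. For Sfrp4 they were Mrpl50 (0.975), Exoc6 (0.963) and Zdhhc9 (0.963), at 0.856 to 0.917 without knockout replicate 4. For Sfrp1 they were Gnl3 (0.97), Pdpn (0.95) and Dynll1 (0.949), and for Dkk3 Eif5 (0.966), Ipo8 (0.962) and Cdc37l1 (0.957). Without control replicate 4 the 3 values for Dkk3 were 0.793, 0.866 and 0.737.

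The rest of the Wnt pathway was read from lists chosen by function, and in none of them did a gene pass the adjusted threshold in either direction. Of 14 other extracellular antagonists 5 were tested, 2 with a higher and 3 with a lower fitted level in the knockout libraries (median log2 fold change -0.005). Those with the smallest p were Apcdd1, a membrane-bound inhibitor, at 3.72 ± 2.002 among the controls and 5.95 ± 1.03 CPM among the knockout libraries (SD, n = 4; edgeR adjusted p = 0.91), and Igfbp4, which binds insulin-like growth factors and also LRP6, at 696.5 ± 123.2 and 643.5 ± 130 CPM (SD, n = 4; edgeR adjusted p = 0.949).

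Of 21 genes for Wnt ligands and their secretion, 7 were tested, 4 higher and 3 lower (median 0.03). Wnt5a, a ligand that acts mostly without beta-catenin, was at 40.6 ± 8.09 and 35.04 ± 5.56 CPM (SD, n = 4; edgeR adjusted p = 0.93), and its close relative Wnt5b at 4.70 ± 2.45 and 3.23 ± 0.828 CPM (SD, n = 4; edgeR adjusted p = 0.941). Of 16 receptor and co-receptor genes 13 were tested, 8 higher and 5 lower (median 0.054). The co-receptor gene Lrp6 was at 81.7 ± 10.6 and 91.2 ± 4.45 CPM and the receptor gene Fzd6 at 26.2 ± 10.6 and 19.7 ± 6.43 CPM (SD, n = 4; edgeR adjusted p = 0.917 and 0.919). For both genes the genotypes overlapped.

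R-spondins act opposite to the inhibitors, by protecting Frizzled receptors from the ligases ZNRF3 and RNF43. All 5 of 9 genes of this system that were tested had a lower fitted level in the knockout libraries (median -0.21), where 49.7% of all genes tested had a higher one. They include both ligase genes, so a shared direction has no single meaning for the pathway. Log2 fold changes ran from -0.622 (Rspo3) to -0.013 (Lgr4), and that of Rnf43, -0.213, had a 95% interval of -2.02 to 1.59. Znrf3, also a target of the pathway, was at 64.2 ± 15.2 among the controls and 45.8 ± 5.95 CPM among the knockout libraries (SD, n = 4), with overlapping libraries. Its log2 fold change was -0.47 (edgeR adjusted p = 0.596; under 0.05 before adjustment). The list's median ran from -0.57 without knockout replicate 3 to -0.001 without knockout replicate 1, so that its size depended on single libraries. Rspo3, an R-spondin gene, was at 7.84 ± 2.84 and 5.06 ± 2.15 CPM (SD, n = 4; edgeR adjusted p = 0.91).

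Inside the cell, all 20 genes listed were tested, 10 higher and 10 lower (median 0.004). Axin1 encodes the scaffold of the complex that marks beta-catenin for destruction. It was at 27.3 to 32.9 CPM among the controls and 21.5 to 26.8 CPM among the knockout libraries. These did not overlap, as for 4.2% of all genes tested (log2 fold change -0.31, edgeR adjusted p = 0.816). Dvl3, which relays the signal from Frizzled, was at 8.25 ± 1.66 and 5.62 ± 1.40 CPM (SD, n = 4; edgeR adjusted p = 0.907).

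Of 17 target genes 11 were tested, 4 higher and 7 lower (median -0.075). Of the 11, 2 had an unadjusted edgeR p under 0.05, both higher, as did 6.39% of all genes tested in either direction. Axin2, the target most widely used to read the pathway, was at 31.2 to 54.8 CPM among the controls and 29.9 to 57.2 CPM among the knockout libraries (log2 fold change -0.075, 95% interval -0.61 to 0.462, edgeR adjusted p = 0.984). Lef1 was at 6.25 ± 3.43 and 4.83 ± 2.15 CPM (SD, n = 4; edgeR adjusted p = 0.949). Cd44, the gene of a hyaluronan receptor that leukocytes carry too, was at 22.8 to 42.7 CPM among the controls and 47.6 to 54.3 CPM among the knockout libraries (log2 fold change 0.572, edgeR adjusted p = 0.432). Jun, which many signals induce besides Wnt, was at 97.0 to 144.0 and 154.4 to 186.6 CPM (log2 fold change 0.384, edgeR adjusted p = 0.592). The libraries of the genotypes did not overlap for either gene, as for 4.2% of all genes tested. Cd44 and Jun were named for their small p, so this is a description only. The macrophage marker sum, given with Sfrp4, did not overlap either, and its part in both genes was not tested.

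**Figure D5:**
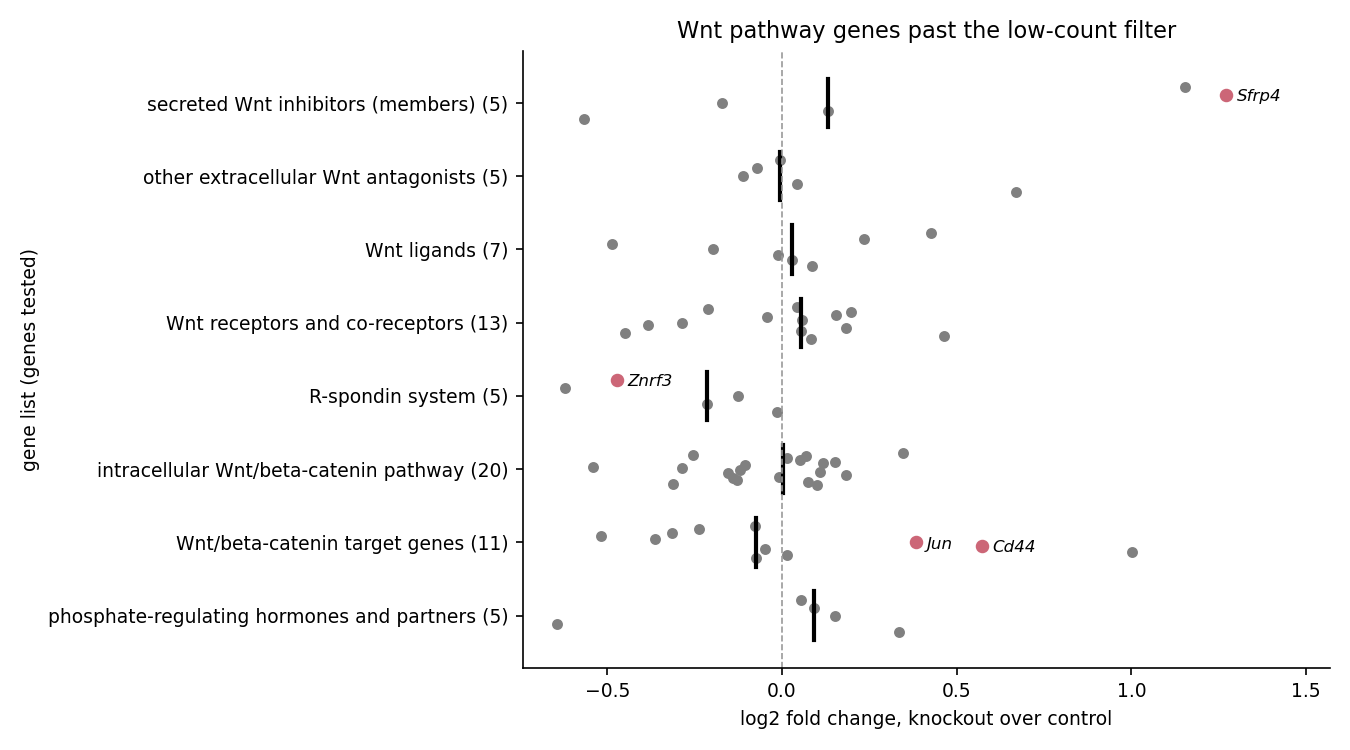
Fitted log2 fold change of knockout over control (horizontal axis) for each tested gene of 8 lists (rows, with the number tested); the black bar is the list's median, and coloured, named points have an unadjusted p under 0.05. Medians lie between -0.21 for the R-spondin system and 0.132 for the secreted inhibitors, and the named genes are Sfrp4, Znrf3, Jun and Cd44.

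Beside Sfrp4, 9 other genes of phosphate-regulating hormones and their partners were listed and 5 were tested, 4 higher and 1 lower (median 0.09), none past the adjusted threshold. Fgf7, a growth factor gene with a phosphatonin action, was at 4.91 ± 0.504 and 3.17 ± 1.958 CPM (SD, n = 4; edgeR adjusted p = 0.91). Fgfr1, a receptor for the phosphatonin FGF23, was at 184.7 ± 18.1 and 205.1 ± 13.8 CPM (SD, n = 4; edgeR adjusted p = 0.912). Mepe had no count in any library.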

How the data were processed

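BRB-seq is a 3′-end RNA sequencing method; libraries of total RNA were read for 51 bases, per the labels' protocols. The authors deposited estimated counts per gene, without normalization; Salmon and GRCm38 are named in the submitters' processing notes, and the version, annotation, strand setting and use of molecular identifiers are not given in the sources used here. Of values above 0, 59.6% were exactly whole numbers, with no tolerance; counts were rounded before testing. Identifiers were matched without version (34582 of 34866) to GENCODE M21 symbols and coordinates (GRCm38).

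The genotype difference was fitted in edgeR 4.0.16 (R 4.3.3, TMM factors, filterByExpr, robust quasi-likelihood test, genotype only, Benjamini-Hochberg over 12480 genes). The same fit was also run on counts simulated from these data. Exact permutation tests used scipy 1.17.1. Alternatives were RLE factors, no filter, DESeq2 1.42.0, limma-voom with a quality weight for each library (limma 3.58.1), a replicate block and leaving out each library. Leaving out control 4 and knockout 4 together was added after seeing the data. CPM uses TMM-scaled totals. Replicate pairs within a genotype differed by 4.48 to 9.40 chi-square units per degree of freedom, more than sampling noise between repeat reads of the same library. Each was counted once, though such differences cannot show that the libraries came from separate animals. Of 31-base words in the members' transcripts, at most 17 were shared with any 1 other gene (Dkk2). Such words were shared with 979 other genes for Sfrp1, 111 for Dkk2 and 50 for Sfrp4, and their effect on the estimated counts was not tested. The members and lists were chosen with earlier results of these data known. Named genes are the members; per pathway list the genes with p under 0.05 or else the 2 smallest p, plus Axin2 and Lef1; and the 3 genes most correlated with each tested member (mean of at least 10 CPM).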

Additional observations from a re-analysis of the deposited data

Results flagged for a closer look

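Dixon's test compared, within each genotype, the distance from the most extreme of 4 libraries to its neighbour with the whole range. Of 30 groups examined (8 genes and 7 marker sums, each genotype), 2 held such a library, where chance gives about 1 in 20. Sfrp2 was at 43.88 CPM in knockout replicate 4, against 9.59 to 13.2 CPM in the other knockout libraries. Wif1 was at 0.3839 CPM in knockout replicate 3, which is 1 count, against 0 in the other 3. With the other 3 at 0, any value above 0 is flagged, so this flag says nothing of the library.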

How the results depend on the processing

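No secreted Wnt inhibitor passed an adjusted p of 0.05 under any setting run, and 1 of them had an unadjusted p under 0.05 in each: Sfrp4, except without knockout replicate 4 and without control 4 and knockout 4 together, where it was Sfrp2. Sfrp4 kept its direction throughout, with log2 fold changes of 0.845 to 1.433 when 1 library was left out and edgeR adjusted p-values of 0.512 to 0.875. Leaving out 1 library gave -0.055 to 0.262 for Sfrp1 and -0.967 to 0.054 for Sfrp2: Sfrp1 turned to -0.005 without control replicate 1 and to -0.055 without knockout replicate 3, and Sfrp2 to 0.054 and 0.01 without knockout replicates 2 and 3; their signs are not settled at this replication. The number of all genes past the threshold went from 21 to 58 without the filter, 54 with DESeq2, 44 without control 4 and knockout 4 together, and 4 to 43 when 1 library was left out (4 without control replicate 2, 43 without control replicate 4). Why these counts moved was not tested. A fit with a replicate block gave 6 genes, and in it Sfrp4 was at 1.159 (edgeR adjusted p = 0.809). Sfrp2 was at -0.437 in that fit and at -0.526 in limma-voom with library quality weights, against -0.172 in the genotype-only edgeR fit. Same-numbered libraries deviated together by correlations of 0.25, -0.06, -0.01 and -0.24, and 2 of 8 libraries correlated best with their own number. The labels state no pairing, and these few correlations cannot exclude one. The median of the Wnt ligands, 0.03, was 0.558 without the filter and 0.498 with DESeq2, which take in genes of lower counts. Leaving out 1 library turned the sign of the median of each Wnt pathway and phosphate list other than the R-spondin system. At 6 to 48 counts per library, the depth limits what can be said of Sfrp4, and more so of Dkk2, Frzb and Wif1.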

Other observations

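Mest, Npr3 and Lep, chosen after their values were seen, are set beside Sfrp5. Mest and Sfrp5 are known as genes whose level in mouse fat goes with the expansion of the depot, Npr3 encodes the natriuretic peptide clearance receptor, and Lep encodes the adipocyte hormone leptin. Mest was at 110.9, 281.0, 81.9 and 65.9 CPM in control replicates 1 to 4 and at 125.7, 114.3, 137.1 and 341.0 CPM in knockout replicates 1 to 4. Npr3 was at 477.8, 799.1, 686.3 and 225.7 CPM in the control and 403.8, 391.5, 624.7 and 882.6 CPM in the knockout libraries. Lep was at 537.8, 971.4, 710.7 and 365.1 CPM in the control and 442.8, 455.8, 774.4 and 1475 CPM in the knockout libraries. For each of these 3 genes, as for Sfrp5, control replicate 4 was the lowest and knockout replicate 4 the highest of the 8 libraries. The same held for 566 of all 12480 genes tested, or 4.54%. The 3 genes were chosen for this pattern, so it is a description only. None differed between the genotypes past the threshold, with log2 fold changes of 0.409 for Mest, 0.074 for Npr3 and 0.286 for Lep (edgeR adjusted p = 0.951, 0.992 and 0.961).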
